A study of Homo sapiens with 3 samples.

Results

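The 10 translation factor genes described here are EEF1A1, EEF1B2, EEF1D, EEF1G, EEF2, EIF4B, EIF3E, EIF3F, PABPC1 and TPT1, and their mRNAs are known for a terminal oligopyrimidine (TOP) start. They were chosen by symbol, and each of the 10 matched exactly 1 of the 58039 genes in the deposited expression table. RNA came from T47D, an established breast cancer cell line that expresses the estrogen receptor. In the study 1 control library carried a control hairpin per its description label, although its shRNA label reads None, and 2 libraries carried a hairpin against the long noncoding RNA ERINA. The 2 knockdown libraries, shRNA1 and shRNA2, came from cells with different hairpins. All hairpin vectors were delivered by lentivirus with puromycin selection of stable cells, and no condition has a second library. Any p-value therefore rests only on the spread between the 2 shRNA libraries, which holds hairpin and technical differences alike. The test used, limma, pools that spread in part over genes of similar level, so it is not the spread of the gene alone.

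A TOP mRNA begins with a cytosine at its cap followed by an unbroken run of pyrimidines. When the kinase complex mTORC1 is active such mRNAs are translated efficiently, and when it is inactive the protein LARP1 binds the capped start and holds them back from ribosomes while keeping them stable. The class holds most mRNAs for cytosolic ribosomal proteins and several for translation factors. EEF1A1 delivers aminoacyl-tRNA to the ribosome, EEF1B2, EEF1D and EEF1G form the complex that recharges it with GTP, and EEF2 moves the ribosome along by a codon. EIF4B helps the helicase eIF4A, EIF3E and EIF3F are subunits of the initiation scaffold eIF3, PABPC1 binds the poly(A) tail, and TPT1 is the translationally controlled tumour protein.

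The annotated starts are shown because they carry the feature that defines the class. The table of RefSeq starts used here (GRCh38.p14) gave 8 start sites for 7 of the 10 genes. EEF1D, EIF3E and PABPC1 were not matched in it. Each line gives 10 bases before the start and 20 from the start onward, 5′ to 3′ on the transcript strand, with the cytosine start and its pyrimidine run in capitals where the run has at least 5 bases.
EEF1A1, chr6:73521013-73521042, minus strand: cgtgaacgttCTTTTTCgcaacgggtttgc
EEF2, chr19:3985444-3985473, minus strand: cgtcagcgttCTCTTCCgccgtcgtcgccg
TPT1, chr13:45341164-45341193, minus strand: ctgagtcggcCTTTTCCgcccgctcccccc
EIF4B, chr12:53006446-53006475, plus strand: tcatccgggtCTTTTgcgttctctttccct
EIF3F, chr11:7987327-7987356, plus strand: cttccgcctcCTTCTTTCTCgacaagatgg
EEF1B2 downstream start, chr2:206159885-206159914, plus strand: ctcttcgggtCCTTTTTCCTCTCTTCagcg
EEF1B2 upstream start, chr2:206159599-206159628, plus strand: aagtggccccagcctcgaggccgggcgtct
EEF1G, chr11:62573872-62573901, minus strand: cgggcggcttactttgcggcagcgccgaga
Of the 7 matched genes 6 thus had an annotated start of the TOP form. The run was 7 bases long in EEF1A1, EEF2 and TPT1, 5 in EIF4B, 10 in EIF3F and 16 at the downstream start of EEF1B2. The upstream start of EEF1B2 and the single start of EEF1G both begin with adenine. Over all RefSeq start sites of the same window, 1429 of 35116 (4.07%) had a cytosine start with a run of at least 5. This pattern was read only at the annotated base and on the transcript strand.

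Values were FPKM, fragments scaled to transcript length and library size, which the authors deposited with a lower and an upper bound. Where 3 FPKM stand together below, their order is control, shRNA1, shRNA2. FPKM are relative to the rest of the RNA pool, so in bulk cells a change in cell makeup and a change in RNA per cell cannot be told apart. All listed genes summed to 790290, 860240 and 808451 FPKM. Depth was estimated at 28400000, 29200000 and 29800000 fragments from genes whose bounds mark a single fragment. ERINA, read from the row of LINC00992, of which RefSeq gives it as a synonym, stood at 63.4, 5.21 and 8.91 FPKM, lower in both libraries labelled as knockdown. The 9 luminal markers were present in every library, for example the keratin KRT8 at 2800, 2474 and 2221 FPKM, with 3 of them higher and 3 lower with both shRNAs (3 and 5 under an equal total FPKM). The 10 markers of immune, endothelial and fibroblast cells together reached 4.38 to 5.09 FPKM per library, with the T cell gene CD3E listed at 0 throughout.

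All 10 translation factors were higher than the control with both shRNAs. By size the largest difference was that of EEF1B2, at 1.62 times the control, followed by EIF3F at 1.49, EIF4B at 1.39 and EEF1A1 at 1.37 times, as the mean of both shRNA libraries over the control FPKM. The smallest was that of EEF2, at 1.04 times. The other 5 lay between 1.17 times (EEF1G) and 1.27 times (PABPC1). On the scale of log2(FPKM + 0.5) the median change of the 10 was 0.31, against 0.0005 over the 13112 genes with a mean of at least 1 FPKM, all of which entered the test.

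Of those 13112 genes, 42.4% were above the control with both shRNAs, and so were 53.8% of the 885 protein-coding genes at 100 FPKM or more. None of the 10 was below the control with both, against 42.6% of tested genes and 36.7% of the abundant ones. Both differences of a gene share the single control library and so are not separate evidence. ERINA itself, with a log2 change of -3.12, did not pass the first limma test given next. None of the 10 factors passed limma with Benjamini-Hochberg adjustment over all genes at 0.05, where 0.0839% of genes passed as higher and 0.267% as lower (adjusted p of 0.0841 to 0.74 over the 10 factors). An unadjusted limma p under 0.05 was reached by 5 (EEF1A1, EEF1B2, EIF4B, EIF3E and EIF3F), against 13.7% of all tested genes as higher. When protein-coding genes were tested alone with limma, 4 of the 10 passed as higher, against 7.11% of those genes and 8.47% of those at 100 FPKM or more. The 4 were EEF1B2, EIF3F, EIF4B and EEF1A1. With the robust option of eBayes EEF1B2 and EIF3F passed as higher, against 3.28% of all tested genes as higher and 4.54% as lower.

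The deposited bounds of both shRNA libraries were clear of the control for 0 of the 10 genes. Over all tested genes they were clear for 0.0839% as higher and 0.221% as lower. These bounds are wide, with upper bounds 33.1% to 63.6% above the FPKM of the 10 factors. The status of every factor was OK in every library.

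**Figure D1:**
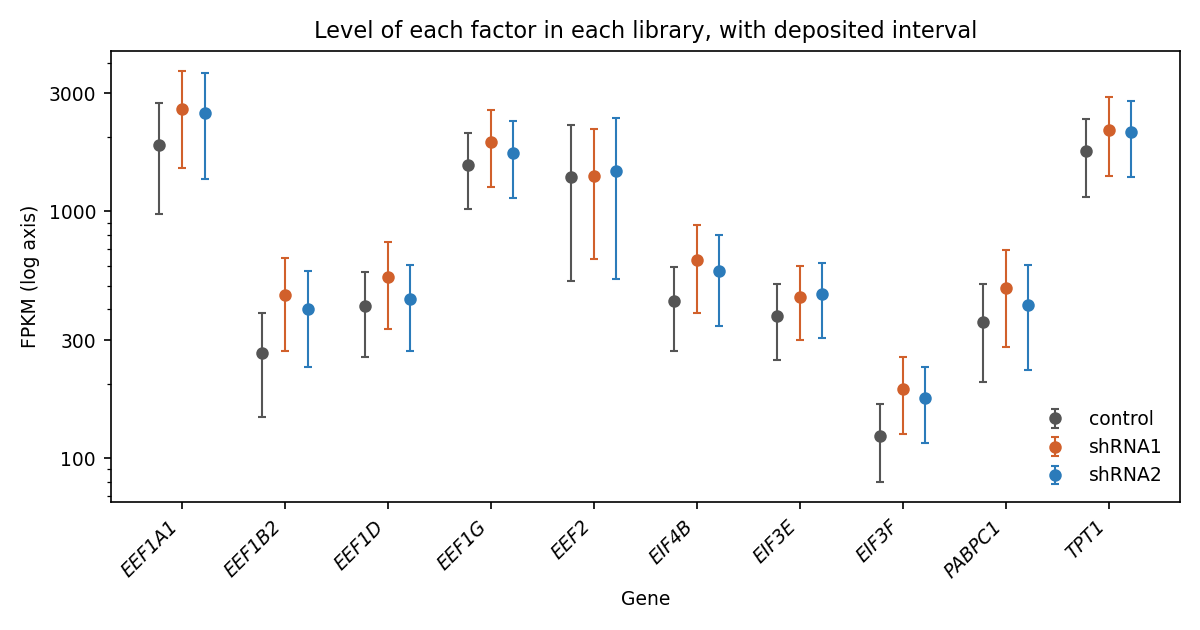
FPKM of the 10 translation factors (log axis) in the control, shRNA1 and shRNA2 libraries, 1 point per library, with the deposited lower and upper bounds as bars. Both shRNA points lie above the control point for each gene, and the bars of the 3 libraries overlap in every gene.

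Among the elongation factors, EEF1A1 (ENSG00000156508, chr6:73515750-73523797, minus strand) was the most abundant. It carries every aminoacyl-tRNA except the initiator and selenocysteine forms to the ribosome. Its level was 1856 FPKM in the control, against 2593 for shRNA1 and 2496 for shRNA2, or 2545 ± 68.6 (SD, n = 2) in knockdown. Both knockdown values were above the control and close to each other. The log2 change was 0.45 (SE 0.11), with a limma adjusted p of 0.106 over all genes (Benjamini-Hochberg) and 0.0341 to 0.263 over the alternatives.

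The guanine exchange complex of EEF1A1 was uneven. EEF1B2 (ENSG00000114942, chr2:206159585-206162928, plus strand), the catalytic subunit, was at 266 FPKM in the control, against 459 for shRNA1 and 403 for shRNA2. Both shRNA values lay above the upper bound of the control, 386 FPKM, but their own lower bounds, 271 and 234 FPKM, did not. The share of all genes with such point values was not computed. This is a log2 change of 0.69 (SE 0.12), and the adjusted p in limma was 0.0844 (Benjamini-Hochberg) and 0.00955 to 0.245 over the alternatives. It was the highest change of the 10 factors with each shRNA.

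EEF1D (ENSG00000104529, chr8:143579697-143599541, minus strand) is the other exchange subunit and a relative of EEF1B2. It was at 413 FPKM in the control, against 539.9 for shRNA1 and 439 for shRNA2, so that it stood apart from the control mainly with shRNA1. Its log2 change came to 0.24 (SE 0.15), and the adjusted p in limma was 0.36 (Benjamini-Hochberg). EEF1G (ENSG00000254772, chr11:62559601-62574086, minus strand), the scaffold subunit, was at 1546, 1905 and 1724 FPKM. On the log2 scale it differed by 0.23 (SE 0.12), and the adjusted p in limma was 0.275 (Benjamini-Hochberg).

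FPKM are scaled to length, so ratios between genes can be given. EEF1G was 5.81 times EEF1B2 in the control, and 4.15 and 4.28 times with shRNA1 and shRNA2. EEF1D was 1.55 times EEF1B2 in the control, against 1.18 and 1.09 times. EEF1A1 was 6.97, 5.65 and 6.19 times EEF1B2. All 3 ratios have EEF1B2, the factor with the highest change, as denominator, so their lower values in knockdown restate that change and are not separate results.

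EEF2 (ENSG00000167658, chr19:3976056-3985469, minus strand), the translocase, stayed nearest to the control. Its FPKM was 1374 in the control, against 1395 for shRNA1 and 1457 for shRNA2. The log2 change was 0.05 (SE 0.10), and the adjusted p in limma was 0.74 (Benjamini-Hochberg). When each library was scaled to an equal total FPKM, a step that moved the all-gene median to -0.12 (shRNA1) and -0.03 (shRNA2), the change of EEF2 became -0.02, with -0.10 for shRNA1 and 0.05 for shRNA2. Its direction thus depended on the scaling, whereas the other 9 factors were above the control with both shRNAs under either scaling. Relative to its FPKM, its deposited bounds were the widest of the 10 in each library, from 522 to 2225 FPKM in the control. The ratio of EEF1A1 to EEF2 was 1.35 in the control and 1.86 and 1.71 with shRNA1 and shRNA2.

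**Figure D2:**
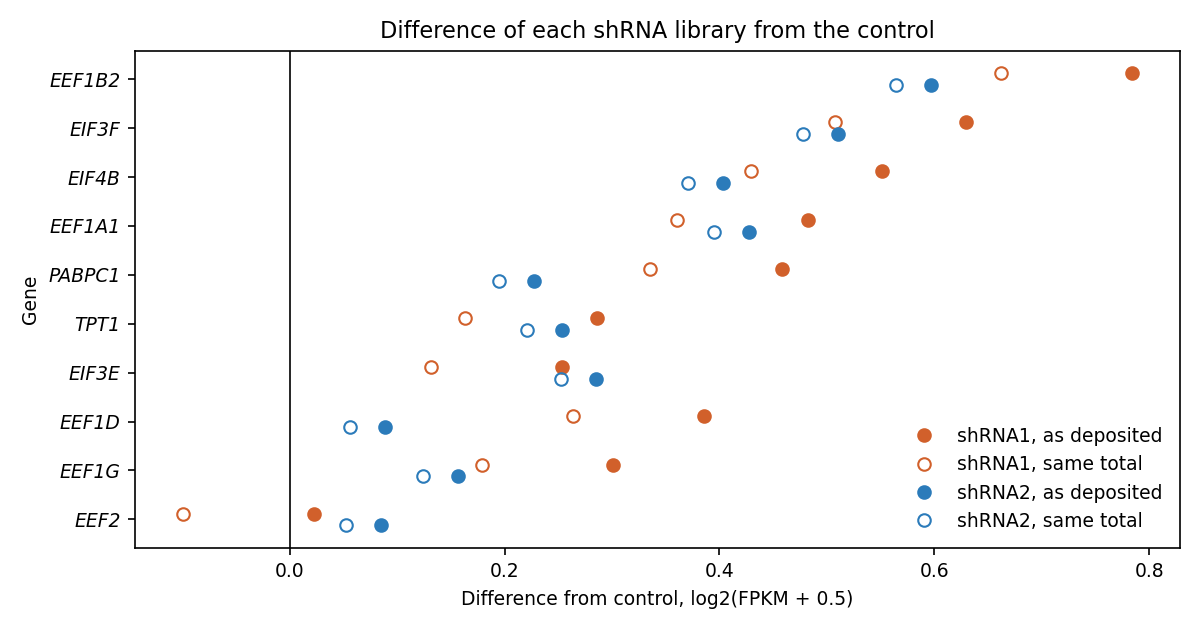
Difference of shRNA1 and shRNA2 from the control on the log2(FPKM + 0.5) scale for each of the 10 genes, ordered by mean change, with values as deposited (filled) and after scaling to the same total FPKM (open). EEF1B2 has the highest difference with each hairpin, and EEF2 is the only gene with a point below 0, for shRNA1 after scaling.

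Among the initiation factors, EIF4B (ENSG00000063046, chr12:53006158-53042209, plus strand) stimulates the helicase that unwinds mRNA leaders. It was at 432 FPKM in the control, against 634 for shRNA1 and 572 for shRNA2, or 603 ± 43.8 (SD, n = 2) in knockdown. Both shRNA values were above the control, and that of shRNA1 also lay above the control's upper bound of 594 FPKM, though its own lower bound did not. This is a log2 change of 0.48 (SE 0.11), and the adjusted p in limma was 0.0998 (Benjamini-Hochberg) and 0.0237 to 0.263 over the alternatives.

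EIF3F (ENSG00000175390, chr11:7970251-8001862, plus strand) was the least abundant of the 10, at 123 FPKM in the control, against 190.5 for shRNA1 and 175 for shRNA2. Both shRNA values lay above the control's upper bound of 166 FPKM, though their own lower bounds did not. Its log2 change came to 0.57 (SE 0.09), and the adjusted p in limma was 0.0841 (Benjamini-Hochberg) and 0.0112 to 0.233 over the alternatives. EIF3E (ENSG00000104408, chr8:108201216-108435333, minus strand) was at 378, 451 and 461 FPKM. On the log2 scale it differed by 0.27 (SE 0.08), and the adjusted p in limma was 0.14 (Benjamini-Hochberg). EIF3E was 3.07 times EIF3F in the control and 2.37 and 2.63 times with shRNA1 and shRNA2. These are subunits of the same complex, and EIF3F was further above its control than EIF3E with each hairpin.

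PABPC1 (ENSG00000070756, chr8:100685816-100722809, minus strand), the main cytoplasmic poly(A)-binding protein, was at 356 FPKM in the control, against 489 for shRNA1 and 416 for shRNA2. The log2 change was 0.34 (SE 0.13), and the adjusted p in limma was 0.183 (Benjamini-Hochberg). Its paralogue PABPC4 was at 45.8, 78.0 and 72.3 FPKM, which is a log2 change of 0.71 (limma adjusted p of 0.0829 over all genes, Benjamini-Hochberg). PABPC1 was 7.76 times PABPC4 in the control and 6.27 and 5.76 times with shRNA1 and shRNA2. PABPC1L was at 3.08, 2.41 and 2.96 FPKM, and PABPC3, PABPC4L and PABPC5 stayed under 0.1 FPKM in every library.

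TPT1 (ENSG00000133112, chr13:45333471-45341370, minus strand) was at 1754 FPKM in the control, against 2138 for shRNA1 and 2091 for shRNA2, or 2115 ± 33.1 (SD, n = 2) in knockdown. The shRNA libraries were close to each other and above the control. This is a log2 change of 0.27 (SE 0.10), and the adjusted p in limma was 0.189 (Benjamini-Hochberg). TPT1 hosts the small nucleolar RNA SNORA31 in an intron.

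The hairpins differed in degree. The median difference from the control over the 10 factors was 0.42 (shRNA1) and 0.27 (shRNA2) on the log2 scale. The 180 protein-coding genes at 400 FPKM or more, which include most of the factors, had medians of 0.25 and 0.16. Only 100 of these 180 genes remained without the 10 factors and the ribosomal proteins, and their medians per hairpin were not computed. Over all 13112 tested genes the medians were -0.0006 (shRNA1) and 0.0 (shRNA2). Whether a larger difference with shRNA1 was particular to the factors was not tested. Of the 10 factors 8 were further above the control with shRNA1, by 0.03 (TPT1) to 0.30 (EEF1D), and EEF2 and EIF3E were so with shRNA2. The share of all tested genes further above with shRNA1 was not computed. With a single library per hairpin the difference between hairpins has no test. After scaling to the same total the medians were 0.30 and 0.24, and 6 of the 10 were further above with shRNA1, with EEF1A1 and TPT1 now further above with shRNA2.

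The order of levels was nearly the same in the 3 libraries. EEF1A1, TPT1, EEF1G and EEF2 led in that order in each, then EIF4B, and EIF3F was last. Between them EEF1D, EIF3E, PABPC1 and EEF1B2 changed places, EEF1B2 moving from below the other 3 in the control to above EIF3E with shRNA1. Neighbours in the order had overlapping deposited bounds in every library except EIF3E and EIF3F with shRNA1. Among protein-coding genes EEF1A1 ranked 32nd in the control and 21st and 18th with shRNA1 and shRNA2, and EIF3F 686th, 402nd and 450th. EEF2 ranked 50th, 57th and 52nd. Together the 10 genes made up 1.08% of the total FPKM in the control, and 1.25% (shRNA1) and 1.27% (shRNA2) in knockdown.

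The change of a gene varied with its level in these libraries. The 67 protein-coding genes at 1000 FPKM or more had a median log2 change of 0.26, and 85.1% of them were above the control with both shRNAs. The 505 genes from 100 to 200 FPKM had a median of 0.01, and the 200 genes from 200 to 400 FPKM one of 0.06. Without the 10 factors and the ribosomal proteins, the medians were 0.14 over 20 genes at 1000 FPKM or more and 0.08 over 80 genes from 400 to 1000 FPKM. Quartiles were computed only for bands that include the 10 factors and the ribosomal proteins, so the factors are set partly against their own class. Against the band of their own level, EEF1G (0.23) and TPT1 (0.27) lay near its median, and above the 0.14 found without that class. EEF2 lay below the lower quartile of its band, 0.19. EEF1A1 lay above the upper quartile of 0.34, and PABPC1 (0.34) above that of its band, 0.27. EEF1B2, EIF3F and EIF4B lay furthest above the upper quartiles of their bands, 0.21, 0.19 and 0.27. The part of level in these changes was not tested.

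**Figure D3:**
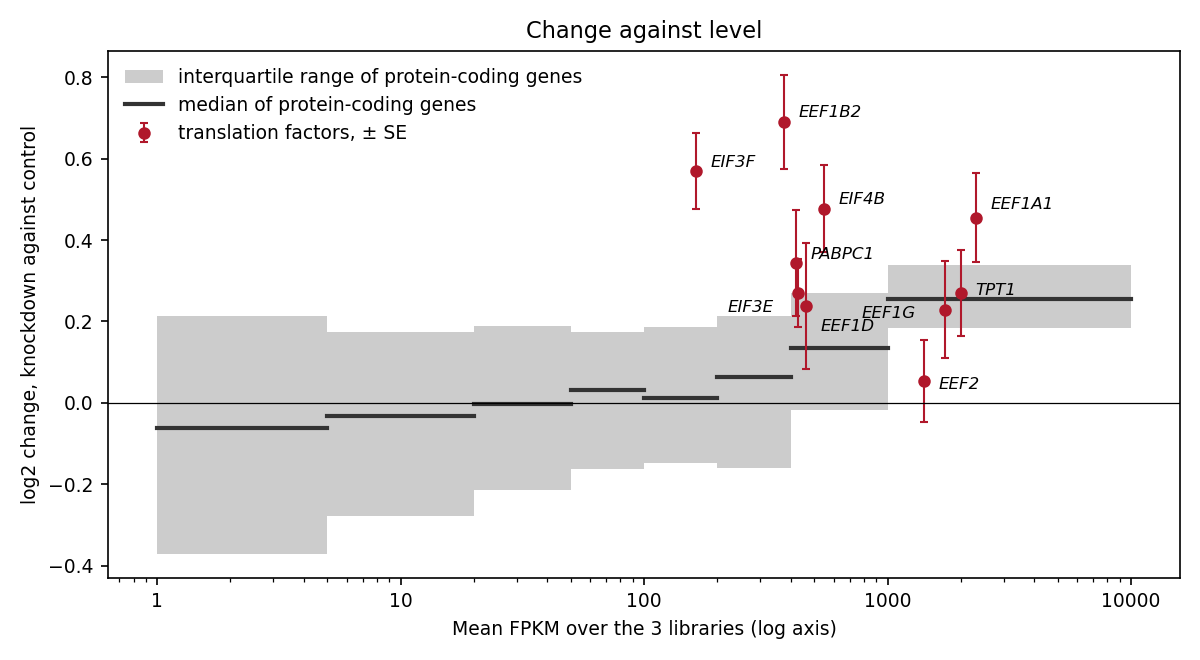
log2 change of the 10 genes (points, with the limma SE) against their mean FPKM (log axis), over the median and interquartile range of protein-coding genes in bands of level, the last band being open above 1000 FPKM. EEF1B2, EIF3F, EIF4B, EEF1A1 and PABPC1 stand above the shaded range, and EEF2 lies below it. The bands include the 10 genes and the ribosomal proteins.

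Several factors have near-identical processed pseudogenes, so the division of reads between copies is uncertain. The table lists 107 genes named as a factor followed by P or L and a digit. They were counted as pseudogenes by name alone, without a check of gene type. Of the 107, 7 reached a mean of 1 FPKM, all annotated as processed pseudogenes. Those of EEF1A1, 39 in number, summed to 27.2, 37.8 and 34.0 FPKM, which is 1.46%, 1.46% and 1.36% of EEF1A1. The most abundant was EEF1A1P5 at 21.4, 28.1 and 26.7 FPKM, and EEF1A1P6, EEF1A1P11 and EEF1A1P13 stayed under 3 FPKM. Those of EIF4B, led by EIF4BP6 (5.46, 7.90 and 7.56 FPKM) with EIF4BP7 below 2 FPKM, summed to 1.69% to 1.76% of EIF4B. EEF1B2P3 was at 2.69, 3.79 and 3.15 FPKM, and no EEF2 pseudogene was listed under such a name. All 7 were, like their parent genes, above the control with both shRNAs, and none passed limma across all genes (Benjamini-Hochberg, adjusted p from 0.116 up to 0.571).

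Few annotated neighbours overlap these genes at a comparable level. NDUFS1, a respiratory chain subunit on the strand opposite EEF1B2, was at 64.1, 59.0 and 59.5 FPKM, below the control in both where EEF1B2 was above it. An antisense RNA across EIF4B, RP11-983P16.4, was at 10.7, 11.5 and 12.1 FPKM. Whether reads were counted by strand is not given in the sources used here. The small nucleolar RNAs SNORD51 and SNORA41 within EEF1B2 and SNORD37 within EEF2 were listed at 0 in every library. Within TPT1 a pair of entries named SNORA31 overlap the gene, the first at 27.6, 14.1 and 0 FPKM and the other listed at 0 in every library.

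The remaining subunits of eIF3 were mostly above the control, with smaller differences than EIF3F. Among all tested genes 42.4% were higher and 42.6% lower with both shRNAs. Of the 12 others listed 11 were tested, 8 were higher and 2 lower with both shRNAs, and the median log2 change was 0.20. EIF3H was at 334, 433 and 433 FPKM, EIF3G at 119, 168 and 143, and EIF3K at 199.9, 269 and 229. Against these, EIF3D (193, 189 and 192 FPKM) and EIF3J (55.1, 54.1 and 52.7 FPKM) lay slightly below the control. None of the 11 passed limma across all genes (Benjamini-Hochberg, adjusted p from 0.0986 up to 0.878).

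The list of cap binding, helicase and poly(A) binding genes went the other way on balance. Among all tested genes 42.4% were higher and 42.6% lower with both shRNAs. It holds partners of EIF4B and PABPC1 but also inhibitors such as EIF4EBP1 and the nuclear protein PABPN1, so its counts are not of partners alone. Of 18 tested genes 5 were higher and 12 lower with both shRNAs, with a median of -0.13 (-0.05 without shRNA1 and -0.20 without shRNA2) and none past limma across all genes (Benjamini-Hochberg, adjusted p from 0.0829 up to 0.91). The scaffold EIF4G1 was at 237, 159 and 178 FPKM, and the inhibitor EIF4EBP1 at 119, 92.6 and 93.7. EIF4E2, a cap-binding homologue of eIF4E, was at 40.3, 17.4 and 24.6 FPKM. The helicase EIF4A1, which EIF4B assists, was at 461, 519 and 486 FPKM, and EIF4H, a factor related to EIF4B, at 208, 174 and 186. EIF4B was 1.82 times EIF4G1 in the control and 3.97 and 3.21 times with shRNA1 and shRNA2.

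Factors of start codon selection, initiator tRNA and subunit joining were also lower more often than higher. The shares of all tested genes were 42.4% higher and 42.6% lower with both shRNAs. Of 19 tested, 6 were higher and 12 lower in both shRNA libraries (median -0.08, with -0.05 without shRNA1 and -0.13 without shRNA2), and none passed limma across all genes (Benjamini-Hochberg, adjusted p from 0.0867 up to 0.949). EIF6, which keeps the large ribosomal subunit from joining early, was at 221, 133 and 151 FPKM. DENR, a reinitiation and recycling factor, was at 67.3, 42.3 and 49.5 FPKM, and EIF2B3, a subunit of the eIF2 exchange factor, at 18.9, 12.6 and 13.3. Release and recycling factors differed little, with 4 of 5 tested higher and 1 lower with both (median 0.04, and -0.04 with 1 higher and 1 lower under an equal total FPKM). Without shRNA1 their median was 0.06. None of the 5 passed limma across all genes (Benjamini-Hochberg, adjusted p from 0.177 up to 0.788). Among them ETF1, the stop codon reader, was at 102, 119 and 117 FPKM, the ribosome rescue factor PELO at 18.1, 18.1 and 15.4, and its partner HBS1L at 71.0, 76.5 and 74.8.

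Other elongation genes were mixed, beside shares of 42.4% higher and 42.6% lower with both shRNAs among all tested genes. Of 19 tested, 9 were higher and 3 lower with both shRNAs, with a median of 0.09 (0.16 without shRNA2) and none past limma across all genes (Benjamini-Hochberg, adjusted p from 0.0813 up to 0.992). Under an equal total FPKM 9 were higher and 7 lower, with a median of 0.02. EEF1A2, the tissue-restricted paralogue of EEF1A1, was at 311, 319 and 282 FPKM. EEF1A1 was thus 5.97 times EEF1A2 in the control and 8.12 and 8.85 times in the knockdown libraries. DPH5, an enzyme of the diphthamide residue that EEF2 carries, was at 12.8, 25.3 and 25.6 FPKM. EEF1AKMT1, a lysine methyltransferase of EEF1A, was at 2.73, 6.41 and 4.88 FPKM, and METTL21B, another, at 10.9, 7.52 and 8.29. EEF2K, the kinase that inhibits EEF2, was at 8.24, 9.49 and 9.17 FPKM.

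Of the 72 other translation factor genes tested, those whose pair of differences lay nearest to the medians of the 10 TOP factors were EIF3K, EIF3G, DPH2, EIF3H and EEF1E1. Likeness was the Euclidean distance over the differences of shRNA1 and shRNA2 from the control, which was 0.07 for the first pair, 0.09 for DPH2, 0.11 for EIF3H and 0.14 for EEF1E1. It rests on 3 libraries. DPH2, a diphthamide synthesis protein, was at 10.9, 13.9 and 12.8 FPKM. EEF1E1, a component of the aminoacyl-tRNA synthetase complex, was at 31.4, 39.7 and 35.3 FPKM.

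**Figure D4:**
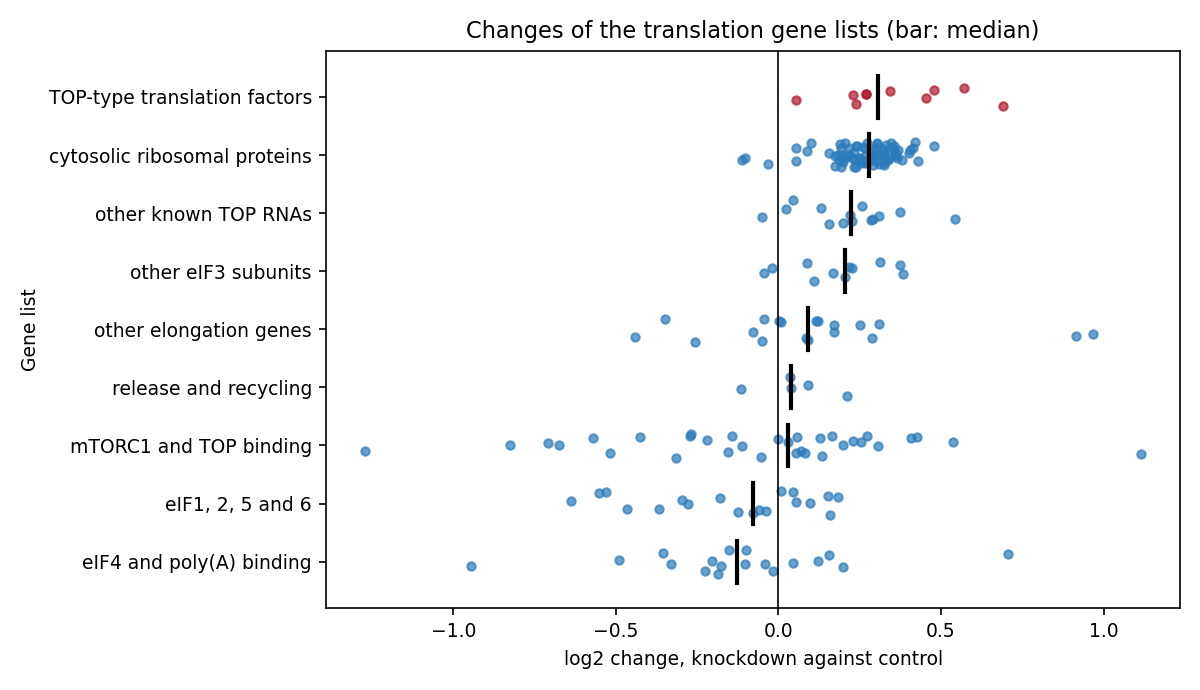
log2 change in knockdown against control for each tested gene of 9 translation lists (points), with the list median as a bar. The TOP-type factors (median 0.31), ribosomal proteins (0.28) and other known TOP RNAs (0.22) have the highest medians, and the eIF4 and poly(A) binding list (-0.13) the lowest.

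Other RNAs known for a TOP start stood close to the 10 factors. The shares of all tested genes were 42.4% higher and 42.6% lower with both shRNAs. Of 14 tested, 12 were higher and 0 lower with both shRNAs, with a median log2 change of 0.22, and none passed limma across all genes (Benjamini-Hochberg, adjusted p from 0.0986 up to 0.89). This list shares EIF3H and EIF3L with eIF3, EEF1A2 with the elongation genes, EIF2S3 with the initiator tRNA list, and members including FAU with the ribosomal proteins. RACK1, a scaffold on the small ribosomal subunit, was at 2083, 2620 and 2461 FPKM, and FAU at 749, 1014 and 849. NACA, which shields nascent chains, was at 1378, 1708 and 1585 FPKM. The filament gene VIM had a log2 change of 0.54 at 1.47, 2.06 and 2.70 FPKM, so low that this scale understates it. Of the 78 tested cytosolic ribosomal protein genes 72 were higher and 3 lower in both shRNA libraries (median 0.28), led by RPL10A at 1211, 1780 and 1599 FPKM, then RPL36A and RPL36 at log2 changes of 0.43 and 0.42, and none passed limma across all genes (Benjamini-Hochberg, adjusted p from 0.11 up to 0.885). Of protein-coding genes at 1000 FPKM or more, many of them ribosomal, 85.1% were higher with both. With protein-coding genes tested alone, 4 ribosomal protein genes passed as higher, against 7.11% of all those genes.

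Regulators of TOP mRNAs went in both directions. Their counts as deposited were near the shares of all tested genes, 42.4% higher and 42.6% lower with both shRNAs. Of 33 tested genes of mTORC1 signalling and TOP mRNA binding, 14 were higher and 15 lower with both shRNAs, with a median of 0.03 (-0.04 under an equal total FPKM, with 11 higher and 18 lower, -0.03 without shRNA1 and 0.07 without shRNA2) and none past limma across all genes (Benjamini-Hochberg, adjusted p from 0.0816 up to 0.987). LARP1, the TOP cap-binding repressor, was at 41.0 FPKM in the control, against 64.5 for shRNA1 and 47.4 for shRNA2. Its relative LARP4 was at 32.4, 44.7 and 41.6 FPKM. RHEB, the GTPase that activates mTORC1, was at 60.6, 33.3 and 40.8 FPKM. The S6 kinase RPS6KB1 had a log2 change of -0.68.

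Single inhibitors of the same route lay on both sides of the control. PDCD4, which blocks the eIF4A helicase that EIF4B stimulates, was at 171 FPKM in the control, against 398 for shRNA1 and 347 for shRNA2, giving a log2 change of 1.12 (limma adjusted p of 0.0816 over all genes, Benjamini-Hochberg). DDIT4, an inhibitor of mTORC1 signalling, was at 73.7, 110 and 105 FPKM. TBC1D7, a subunit of the TSC complex, was at 23.4, 10.9 and 15.5 FPKM, and the arginine sensor listed as GATSL3 (CASTOR1) at 8.52, 3.99 and 2.61. Of the inhibitors TSC1, TSC2 and SESN1, chosen after their values were seen, TSC1 was at 9.49, 8.51 and 8.43 FPKM, TSC2 at 14.7, 11.1 and 10.6, and SESN1 at 4.76, 3.86 and 4.18, all below the control with both shRNAs. DEPTOR, a further inhibitor on the list, was at 11.1, 13.7 and 13.5 FPKM, above the control with both shRNAs. MTOR itself was at 13.3, 15.7 and 15.1 FPKM. RNA levels of these genes do not measure mTORC1 activity, which was not analysed here.

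The TOP start was then read across the transcriptome, a description chosen after the values of the 10 factors were known. Of the tested genes 9223 had a RefSeq start by symbol, and 692 of them had a cytosine start with a run of at least 5 pyrimidines. Their median log2 change was 0.03, and 46.7% were above the control with both shRNAs, against 42.3% of all 9223. For the 147 genes with a run of 10 or more, to which EIF3F and EEF1B2 belong, the median was 0.08 and the share 50.3%. Without the 10 factors, the ribosomal proteins and the list of other known TOP RNAs, 634 genes with such a start remained, with a median of 0.002 and a share of 42.4%, against 41.8% of the 9146 genes left in all. This wider set was near the background of all genes with a RefSeq start. Of the 147 genes with a run of 10 or more, 129 remained after the same exclusion. Their median was 0.03 and their share 44.96%, lower than the 0.08 and 50.3% found before it. Of 63 ribosomal protein genes matched, 47 had a cytosine start with a run of at least 5.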

How the data were processed

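RNA was sequenced from 3 libraries of T47D cells, 1 control and 2 with ERINA knockdown. The authors deposited FPKM per gene and library with lower and upper confidence bounds, also in FPKM, and a status, per the file headers. The submitters' processing notes name STAR, RSEM and GRCh38 without version or role. Filters, scaling between libraries, the confidence level and strandedness were not given in sources used here. Gene types and positions came from GENCODE release 29 (57435 of 58039 genes matched). Starts came from the RefSeq table of GRCh38.p14.

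Analysis was on the log2(FPKM + 0.5) scale, for 13112 genes averaging at least 1 FPKM. The test was limma 3.58.1 in R 4.3.3 (lmFit, eBayes with trend, tested on simulated data) on the whole table, knockdown against control, Benjamini-Hochberg adjusted, calling genes under 0.05. The fit leaves 1 residual degree of freedom, and the control is assumed to vary like the shRNA libraries. No FPKM was identical and nonzero in a pair of libraries (0 genes in each pair). Depth came from genes with 1 transcript of at least 500 nt. The 10 factors and all lists were chosen with earlier results of these data known. Named besides the factors were the 3 largest changes with the same sign in both shRNAs per list, any gene past the test, pseudogenes at 1 FPKM or more and the 5 nearest translation genes. Other genes (such as EEF1A2, RACK1, LARP1, RHEB, DDIT4) were chosen after their values were seen, for their role. Alternatives covered pseudocount, filter, scaling, the eBayes options, protein-coding genes alone and each shRNA alone. Python 3.11.15, pandas 2.3.3, numpy 2.4.6 and matplotlib 3.10.9 were used.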

Additional observations from a re-analysis of the deposited data

How the results depend on the processing

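Every factor except EEF2 kept its direction under every alternative run. EEF2 changed from 0.05 to -0.0237 with the same total FPKM and to -0.0312 with the same total without RMRP and RPPH1. No factor passed limma under pseudocounts of 0.1 or 1, a mean FPKM of at least 5, no filter, no trend or either scaling. The robust option passed 2 of the 10 (EEF1B2 and EIF3F) and protein-coding genes alone 4. The latter setting also passed as higher 4 ribosomal protein genes, 3 on the mTORC1 list, 3 luminal markers and 2 other elongation genes. In it 1 gene each passed as higher for eIF3, eIF4 and poly(A) binding, and other TOP RNAs. As lower it passed 6 on the mTORC1 list, 5 on the start codon list and 3 on the eIF4 and poly(A) binding list. Over all protein-coding genes 7.11% passed as higher and 11.3% as lower. The member median of 0.31 ran from 0.27 to 0.42 without either shRNA replicate. Over all genes limma called 11 higher and 35 lower (Benjamini-Hochberg), and instead 65 and 111 with the same total, 39 and 87 with that total without RMRP and RPPH1, 430 and 595 with the robust option, 821 and 1299 with protein-coding genes alone, 0 and 0 with no filter, and 6 higher with no trend. With an unadjusted p under 0.05 in limma, 1802 genes were higher and 2087 lower.

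Medians of the other lists moved with the scaling. With the same total, and with the same total without RMRP and RPPH1, they were 0.0161 and 0.0089 for other elongation genes (0.09 as deposited), 0.13 and 0.12 for eIF3 (0.20), -0.16 and -0.16 for the start codon list (-0.08), -0.0373 and -0.0448 for release factors (0.04), 0.15 and 0.14 for other TOP RNAs (0.22) and -0.10 and -0.11 for luminal markers (-0.02). For the mTORC1 list the last setting gave -0.0499 (0.03). Without either shRNA replicate they ran from 0.0834 to 0.1566 for elongation genes, 0.0369 to 0.0631 for release factors, -0.1956 to -0.0539 for the eIF4 and poly(A) binding list, -0.1264 to -0.0503 for the start codon list, -0.0333 to 0.0726 for the mTORC1 list, -0.0229 to 0.0091 for luminal markers and -0.2296 to 0.0924 for markers of other cell types. The last 3 medians thus turned sign with the library left out. The 2 tested markers of other cell types had a median of -0.07 and dropped out at a mean FPKM of at least 5. The summed share of the 10 factors in control, shRNA1 and shRNA2 was 1.31%, 1.53% and 1.52% of the total without RMRP and RPPH1, 1.60%, 1.92% and 1.87% of protein-coding FPKM, and 0.84%, 0.95% and 0.96% of the whole total without EEF1A1. No count of calls could be had without a shRNA replicate, since no residual degree of freedom is left. No paired analysis was possible because the groups share a single replicate number. Depth limits little for these abundant genes, whereas the single control library limits every comparison.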
